A study of Homo sapiens with 6 samples.

Results

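The colony-stimulating factors are secreted growth factors that drive the formation, survival and activation of myeloid cells, and CSF1R is the receptor through which one branch of the family acts. The genes described here are CSF1, IL34, CSF2, CSF3 and CSF1R, 5 of the 57905 gene rows in the count tables, found by matching each symbol to 1 Ensembl identifier. They were taken up with the counts of these same libraries in view, so their differences between the groups are given as a description. Standard errors and intervals are printed, but no p-value for any of the 5. Where calls among them are counted below, the counts are a description too. Of the 5 genes, 4 passed the filter on low counts, and IL34 did not.

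CSF1 (M-CSF) and IL34 are both ligands of CSF1R, a receptor tyrosine kinase of macrophages and microglia. CSF2 (GM-CSF) and CSF3 (G-CSF) act through cytokine receptors that signal by JAK kinases and STAT factors, CSF2 on granulocytes and macrophages and CSF3 mainly on neutrophils and their precursors. Glioma cells can secrete such factors, and the macrophages and microglia of a brain tumour carry their receptors. The mRNAs of CSF2 and CSF3 are classic short-lived transcripts: AU-rich elements in their 3′ untranslated regions recruit proteins that speed or slow their decay.

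The measurements come from bulk RNA sequencing of U87, an established human glioma cell line grown in DMEM with serum. The 3 libraries labelled siRBM47 have siRBM47 as both genotype and treatment, and the 3 labelled control have genotype WT and the treatment entry no. The protocol text is the same for all 6 and names 100 pmol of siRNA with lipofectamine 3000, so the labels do not say whether control cells were transfected, and transfection and siRNA cannot be told apart. RBM47 is an RNA-binding protein that acts on splicing, stability and editing of transcripts. Nothing in the labels says whether replicates came from separate cultures. The p-values therefore speak only for the scatter among these libraries, and that scatter may be technical.

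Total counts ran from 15580000 to 18130000 per library, rounded. RBM47 itself was at 3.54, 2.74 and 2.23 CPM in siRBM47 libraries and at 1.62, 1.73 and 5.75 CPM in control libraries (CPM, a count scaled to the size of its library after TMM, a correction for composition), so a lower level of the targeted gene was not detected. Its log2 fold change was -0.11 (SE 0.50, 95% interval -1.23 to 1.02) with all libraries and 0.76 (SE 0.36) without control replicate 3, and directions below are between libraries as labelled. Among controls, replicate 3 was unlike replicates 1 and 2. The chi-square statistic per degree of freedom, a measure of how far the counts of a pair of libraries differ, was 145 and 117 for its pairs with control replicates 1 and 2, against 10.7 for that pair and 15.1 to 37.1 among siRBM47 libraries. Several of the values below turn on this library. For genes named by the rule given under data processing, the value or range without it is given too where it moved a value by over 1.5 times or made or ended a call. The glioma label was read against 8 markers, of which the glial ones were low. Of the mesenchymal ones VIM, CD44 and FN1 were abundant. NES, also mesenchymal in this list, was only at 13.1 to 15.2 CPM in siRBM47 and 13.4 to 14.2 CPM in control libraries. Both CD44 and NES were named after their values were seen. VIM, named after its values were seen, was at 3954 ± 603 CPM in siRBM47 and 3873 ± 1054 CPM in control libraries, and FN1 at 3573 ± 812 and 2318 ± 676 CPM in the same order (SD, n = 3 each). FN1 passed without control replicate 3 (log2 fold change 0.89, SE 0.18, adjusted p = 0.00399, edgeR). GFAP, the astrocyte filament, was at 0.614 to 0.857 CPM in siRBM47 and 0.339 to 1.49 CPM in control libraries, and the stem cell factor SOX2 at 0.614 to 1.60 CPM in siRBM47 and 0.474 to 1.32 CPM in control libraries, both named after their values were seen. OLIG2 was also low, at 3.26 to 4.58 CPM in siRBM47 and 5.96 to 8.41 CPM in control libraries, and S100B had at most 7 counts in any library. Of the 8 glioma markers 7 were tested and 0 passed by edgeR. At an unadjusted p under 0.05 were 2, as were 16.1% of all tested genes.

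The AU-rich elements are shown first, because they set CSF2 and CSF3 apart within the family in sequence. Below are the 30-base windows with the most ATTTA pentamers in the longest annotated 3′ untranslated region of each gene (GENCODE release 29 transcripts, GRCh38), with the pentamers in capitals.
CSF2, chr5:132076076-132076105, plus strand: aaaatATTTATTTATTTATTTATTTAagtt
CSF3, chr17:40016979-40017008, plus strand: atgtATTTAtctctATTTAatATTTAtgtc
CSF1, chr1:109930917-109930946, plus strand: taaagtcATTTAaatatctATTTAaaagat
The CSF2 window holds 5 overlapping pentamers, and 0.21% of the 19141 protein-coding genes have a window with as many. The CSF3 window holds 3 separate pentamers, matched or exceeded by 2.97% of genes, and the CSF1 window holds 2, matched or exceeded by 22.6%. The whole 3′ untranslated regions of CSF2, CSF3 and CSF1 hold 8, 7 and 4 pentamers in 318, 854 and 2154 bases. The nonamer TTATTTATT, which overlaps the pentamer, was present in CSF2 and not in CSF3 or CSF1, and 8.21% of genes hold it. These shares depend on length. Among genes with a region of similar length, 1.70% hold the nonamer for CSF2. Windows with as many pentamers were in 0.30% of such genes for CSF2, 1.59% for CSF3 and 32.4% for CSF1. The 3′ untranslated regions of CSF1R (778 bases) and IL34 (495 bases) hold 0 pentamers. A match is a description of the letters and not of a bound site.

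CSF3 (ENSG00000108342, GRCh38 chromosome 17, 40015361 to 40017813, plus strand) had the highest level per length (FPKM) of the 4 ligands in each library and the largest fold change of the 3 that were tested. It was at 50.8, 24.5 and 16.3 CPM in siRBM47 libraries and at 626, 625 and 76.2 CPM in control replicates 1, 2 and 3. All 3 siRBM47 libraries lay below all 3 controls, but control replicate 3 lay much nearer to the siRBM47 libraries than to its own group. The raw counts behind these levels were 919, 429 and 292 in siRBM47 and 9245, 10862 and 1431 in control libraries, so counting error was small against these gaps. The exact Poisson 95% interval, which covers counting error only, was 47.5 to 54.2 CPM in siRBM47 replicate 1 and 72.3 to 80.2 CPM in control replicate 3, the closest libraries of the 2 groups. Means were 30.5 ± 18.0 CPM in siRBM47 and 442 ± 317 CPM in control libraries (SD, n = 3 each), where the control SD is set by replicate 3. CSF3 was thus fitted as 14.5-fold lower in siRBM47, a log2 fold change of -3.86 (SE 0.74, 95% interval -5.50 to -2.21). In bulk RNA a difference of this kind can come from fewer cells that make the transcript or from less RNA per cell, which cannot be told apart.

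Without control replicate 3 the log2 fold change of CSF3 was -4.36 (SE 0.33), and it lay between -4.44 and -3.51 when any 1 library was left out. The 8.21-fold gap between control replicates 1 and 2 and control replicate 3 was itself larger than the 2.49-fold gap between control replicate 3 and the siRBM47 mean. On a log2 scale control replicate 3 stood 3.04 below the mean of the other two controls, and 0.137% of the 14578 tested genes had a lower value of this difference. On the deposited FPKM scale, which divides by gene length, CSF3 was at 22.8, 10.9 and 7.34 in siRBM47 libraries and at 280, 279 and 33.7 in control libraries. In control replicates 1 and 2 it ranked 164 and 147 among 19263 protein-coding genes, against 1260 in control replicate 3 and 1936, 3712 and 4919 in the siRBM47 libraries. Of the protein-coding genes, 99.1% and 99.2% had lower FPKM than CSF3 in control replicates 1 and 2, and 93.5% in control replicate 3.

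**Figure D1:**
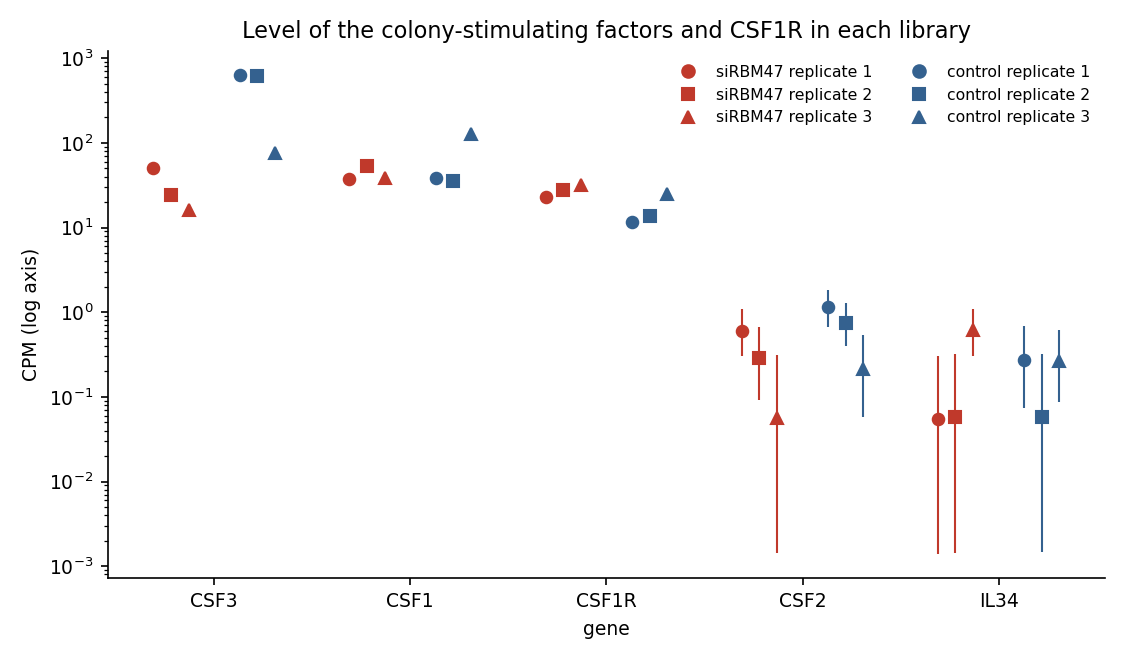
Level in CPM (log axis) of each gene in each library, with siRBM47 libraries in red to the left of control libraries in blue. Symbols mark the replicate and bars the exact Poisson 95% interval, which covers counting error only. CSF3 is lowest in siRBM47 replicate 3 (16.3 CPM) and highest in control replicate 1 (626 CPM), while CSF2 and IL34 lie near the limit of detection.

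CSF2 (ENSG00000164400, chromosome 5, 132073790 to 132076170, plus strand) was close to the limit of detection. It had 11, 5 and 1 counts in siRBM47 libraries and 17, 13 and 4 counts in control libraries, where 3 counts stand for 0.160 to 0.203 CPM. Expressed as CPM these were 0.608, 0.286 and 0.0559 in siRBM47 and 1.15, 0.748 and 0.213 in control libraries. The groups overlap, since siRBM47 replicates 1 and 2 lay above control replicate 3, and in each group replicate 3 was lowest. Its log2 fold change of -1.11 had an SE of 0.80 and a 95% interval of -2.89 to 0.68, which holds both directions. Control replicate 3 lay 2.16 (log2) below the mean of the other controls, the same side as in CSF3, and without it the value was -1.55 (SE 0.68). At this depth a difference in CSF2 was not detectable.

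CSF1 (ENSG00000184371, chromosome 1, 109910242 to 109930992, plus strand), the main ligand of CSF1R, was moderately expressed. Its level was 37.7, 53.2 and 38.9 CPM in siRBM47 libraries and 38.1, 35.4 and 127 CPM in control replicates 1, 2 and 3. The other 5 libraries lay between 35.4 and 53.2 CPM, and control replicate 3 was 3.45-fold above the mean of the other controls and 2.39-fold above the highest siRBM47 library. The log2 fold change of -0.63 (SE 0.45, 95% interval -1.63 to 0.37) rests on that library. Without it the value turned to 0.24 (SE 0.19). The jump of CSF1 in control replicate 3 was in the opposite direction to that of CSF3 and CSF2, and 97.9% of tested genes had a lower value of this difference.

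IL34 (ENSG00000157368, chromosome 16, 70579895 to 70660682, plus strand), the second ligand of CSF1R and best known from neurons and skin, was barely detected. It had 1, 1 and 11 counts in siRBM47 libraries and 4, 1 and 5 counts in control libraries. The groups overlap, and the largest value came from siRBM47 replicate 3 at 0.614 CPM (exact Poisson 95% interval 0.307 to 1.10). No fold change is given, because most libraries are at or near 3 counts.

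CSF1R (ENSG00000182578, chromosome 5, 150053291 to 150113372, minus strand) was expressed in every library, at a lower level per length than CSF1. It was at 22.8, 27.4 and 31.6 CPM in siRBM47 libraries and at 11.6, 13.6 and 24.9 CPM in control libraries. Control replicates 1 and 2 lay below every siRBM47 library, and control replicate 3 lay above siRBM47 replicate 1, so the groups overlap. CSF1R was 1.63-fold higher in siRBM47, a log2 fold change of 0.71 (SE 0.30, 95% interval 0.04 to 1.37). It was 1.11 (SE 0.21) without control replicate 3 and between 0.51 and 0.82 when another library was left out. Against control replicate 3 alone the siRBM47 mean was 1.09-fold higher.

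CSF1R has 2 annotated starts in RefSeq, and both upstream windows are shown because the counts per gene cannot say which one U87 cells use. Each line gives the 250 bases before the start (RefSeq, GRCh38.p14), with 2 motifs in capitals where a search of both strands found them. These are GAGGAA, read as TTCCTC on the other strand, the core bound by the myeloid factor PU.1, and TGANTCA, bound by AP-1, which do not overlap here.
CSF1R distal start, chr5:150113366-150113615, minus strand: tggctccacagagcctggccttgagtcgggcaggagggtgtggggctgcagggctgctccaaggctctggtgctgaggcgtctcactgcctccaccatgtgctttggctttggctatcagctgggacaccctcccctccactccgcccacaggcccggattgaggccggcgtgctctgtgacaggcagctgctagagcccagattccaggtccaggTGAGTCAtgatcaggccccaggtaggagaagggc
CSF1R proximal start, chr5:150086555-150086804, minus strand: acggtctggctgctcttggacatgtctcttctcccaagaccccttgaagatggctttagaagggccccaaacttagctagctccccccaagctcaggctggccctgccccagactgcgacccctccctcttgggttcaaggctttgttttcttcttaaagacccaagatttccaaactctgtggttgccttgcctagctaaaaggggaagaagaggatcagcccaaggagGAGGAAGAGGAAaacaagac
The proximal window, known as the start used in macrophages, holds 2 copies of GAGGAA and 0 of TGANTCA. The distal window holds 0 and 1. The upstream window of CSF2, the only other gene of the family with one, holds 1 and 0. Of 35116 upstream windows of this length, 23.6% hold GAGGAA and 6.57% hold TGANTCA. SPI1, which encodes PU.1, had 0 counts in each siRBM47 library and 0, 1 and 0 counts in control libraries, which allows up to 3 counts, or 0.160 to 0.203 CPM, in a library at 0. Of the other factors known to act on CSF1R in macrophages, CEBPA and IRF8 had 0 counts in all 6 libraries. RUNX1, named after its values were seen, was at 92.3 ± 11.5 CPM in siRBM47 and 81.2 ± 4.67 CPM in control libraries (SD, n = 3), with a log2 fold change of 0.19 (SE 0.18, adjusted p = 0.649, edgeR).

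Because CSF1R is a receptor of macrophages and microglia, markers of these cells were read beside it. Of 15 listed markers 14 were found in the tables, 6 of them had 0 counts in all libraries and 1 was abundant enough to be tested. The 6 defining markers PTPRC, ITGAM, AIF1, TYROBP, LAPTM5 and FCER1G had 9, 17 and 2 counts together in siRBM47 libraries and 14, 6 and 3 in control libraries, and ITGAM, AIF1 and TYROBP were at 0 in all of them. CSF1R had between 171 and 565 counts in the same libraries. The summed level of all markers was 20.8 to 30.3 CPM in siRBM47 and 4.32 to 43.0 CPM in control libraries. Most of it came from TMEM119, a microglial membrane protein also made by bone-forming cells, which had 4.06 of 5.69 CPM and 3.51 of 4.32 CPM even in control replicates 1 and 2, where its level was lowest. TMEM119 was at 25.2 ± 4.94 CPM in siRBM47 and 16.5 ± 22.1 CPM in control libraries (SD, n = 3), where counts were 60, 61 and 789 in control replicates 1, 2 and 3. Its log2 fold change was 0.60 (SE 0.78, adjusted p = 0.745, edgeR) with all libraries. Leaving out control replicate 3 gave 2.73 (SE 0.25, adjusted p = 1.27e-05, edgeR).

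The balance of the factors within a library was read per length. By FPKM, CSF3 was at 3.28, 1.12 and 1.02 times the FPKM of CSF1 in siRBM47 libraries and at 40.1, 43.1 and 1.46 times in control libraries. CSF3 made up 49.4% to 74.7% of the summed FPKM of the 4 ligands in siRBM47 libraries and 97.0%, 97.4% and 59.0% in control replicates 1, 2 and 3. By this share control replicate 3 fell inside the siRBM47 range. The ratio of CSF1 to CSF1R was 1.57, 1.84 and 1.17 in siRBM47 libraries and 3.13, 2.48 and 4.84 in control libraries. The groups did not overlap by this ratio, but how often other pairs of genes separate was not computed. CSF1 and CSF1R each overlapped alone. Control replicates 1 and 2 were low in CSF1R, whereas control replicate 3 was high in CSF1. By mean FPKM the order in siRBM47 was CSF3 (13.7 ± 8.13), CSF1 (7.93 ± 1.51), CSF1R (5.26 ± 0.847), CSF2 (0.402 ± 0.354) and IL34 (0.108 ± 0.144; SD, n = 3). The ranges of CSF3 and CSF1 overlapped in siRBM47 libraries, as did those of CSF2 and IL34, while CSF1, CSF1R and CSF2 were apart from each other. In control libraries the order was the same, at 198 ± 142, 12.2 ± 9.41, 3.20 ± 1.36, 0.891 ± 0.597 and 0.0877 ± 0.0538 FPKM (SD, n = 3), and no neighbours overlapped in range.

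**Figure D2:**
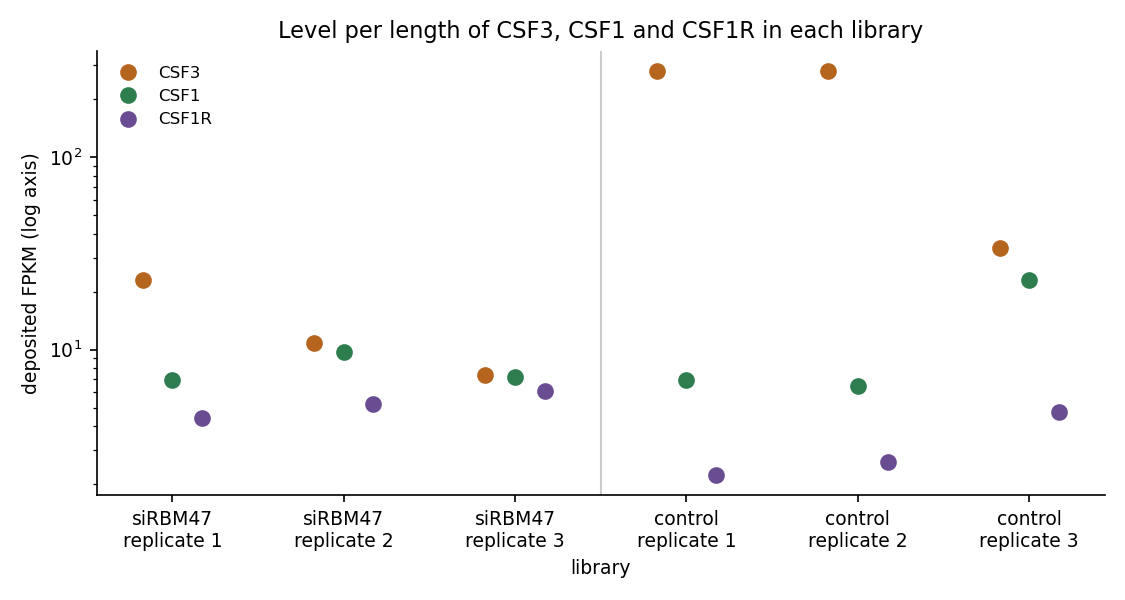
Deposited FPKM (log axis) of CSF3, CSF1 and CSF1R in each library, siRBM47 libraries to the left of control libraries. CSF3 exceeds CSF1 about 40-fold in control replicates 1 and 2 (40.1 and 43.1 times) and 1.46-fold in control replicate 3, where CSF1 is at its highest.

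Across all genes 32 of 14578 passed an adjusted p of 0.05 (edgeR quasi-likelihood test), a share of 0.22%. None of the 4 tested genes of the family was among them: 0 passed by edgeR, with 2 (CSF3 and CSF1R) at an unadjusted p under 0.05, as were 16.1% of all tested genes. DESeq2 called 1 of the 4 (CSF3, where 4.42% of genes were called) and limma-voom 0 (0.233% of genes). Without control replicate 3 edgeR called 2 of the 4, CSF3 lower and CSF1R higher, in a fit that called 21.4% of all genes. The groups did not overlap for 1 of the 4 genes, CSF3, as for 22.6% of all tested genes. Since the 5 genes were chosen on this contrast, these counts carry no weight as evidence. The median log2 fold change of the 4 tested genes was -0.87, and that of all tested genes was -0.01.

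The libraries' pattern of each gene was compared with that of 9644 abundant genes, by the root mean square difference of mean-centred log2 CPM over the 6 libraries. Nearest to CSF3 were TFPI2, a protease inhibitor (0.25), the cytokine IL1B (0.33), SERPINB2, an inhibitor of plasminogen activators (0.39), the matrix protease MMP3 (0.61) and IL1RN, the interleukin-1 receptor antagonist (0.85). TFPI2 was at 86.1, 52.3 and 43.2 CPM in siRBM47 libraries and at 1447, 1344 and 122 CPM in control libraries. IL1B was at 25.2, 11.1 and 5.53 CPM in siRBM47 libraries and at 213, 212 and 18.6 CPM in control libraries. Both thus show the same steep step between control replicates 1 and 2 and the other 4 libraries. The log2 fold changes of the 5 genes ran from -4.47 to -2.54 with all libraries and from -5.02 to -2.91 without control replicate 3. Because these genes, and those nearest to CSF1 and CSF1R, were picked for their pattern over the same libraries, their group differences follow from the choice and are given with no test.

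Nearest to CSF1 were the adhesion receptor ADGRG1 (0.12), CHI3L1, a secreted glycoprotein of mesenchymal glioma (0.13), ANGPTL2 (0.18), the interferon-induced GTPase GBP2 (0.19) and TSC22D3, a glucocorticoid-induced factor (0.20). CHI3L1 was at 25.1, 31.6 and 26.5 CPM in siRBM47 libraries and at 21.4, 19.7 and 88.8 CPM in control libraries, so here too control replicate 3 was the 1 high library. All 5 had a negative log2 fold change with all libraries (-0.65 to -0.36) and a positive one without control replicate 3 (0.12 to 0.43). Nearest to CSF1R were DCAF4 (0.08), the pseudogene LRRC37A16P (0.10), whose family has near-identical copies and whose counts are uncertain, the sterol enzyme LSS (0.11), the actin-binding PFN2 (0.11) and AACS, an enzyme of ketone body use (0.13). DCAF4 was at 26.5, 31.0 and 32.6 CPM in siRBM47 libraries and at 13.7, 14.0 and 26.9 CPM in control libraries. The log2 fold changes of these 5 ran from 0.56 to 0.72 with all libraries and from 0.96 to 1.12 without control replicate 3. The nearest genes of CSF2, with NEAT1 first at 0.34, were further off than those of CSF1 and CSF1R. CSF2 has too few counts to give a firm pattern.

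**Figure D3:**
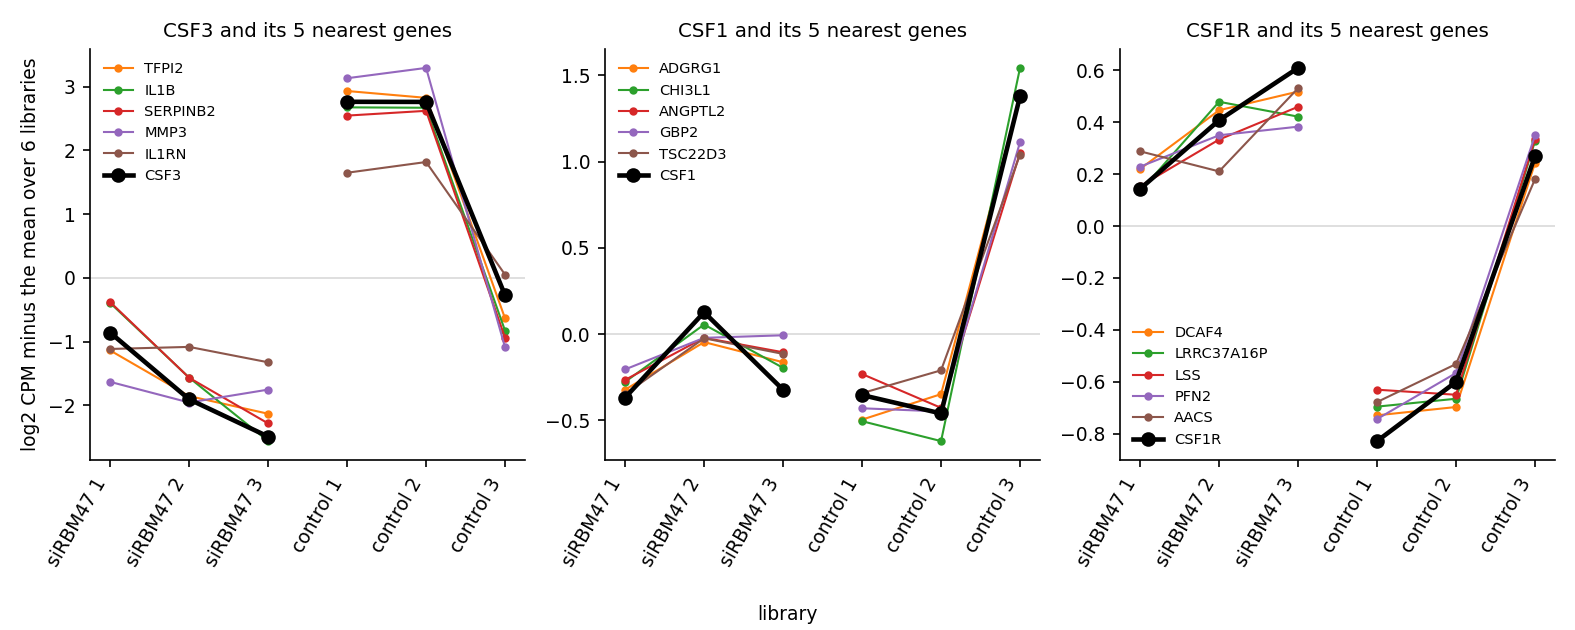
Mean-centred log2 CPM in each library of CSF3, CSF1 and CSF1R (black) and of the 5 abundant genes with the smallest root mean square difference from each (colours). Lines join the libraries of a group only to guide the eye. Control replicates 1 and 2 stand high for CSF3 and low for CSF1R, and control replicate 3 stands high for CSF1.

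On the genome no exon of the 5 genes overlaps an exon of another gene in GENCODE release 29, on either strand. The annotation behind the deposited counts may differ from that release, and reads that run on from a neighbour were not tested. The nearest protein-coding genes were read as positional context. MED24, a Mediator subunit gene whose nearer end lies 1284 bases from CSF3, was at 37.8, 56.0 and 58.1 CPM in siRBM47 libraries and at 64.3, 64.4 and 59.5 CPM in control libraries (log2 fold change -0.31, SE 0.21, adjusted p = 0.5, edgeR). PSMD3, a proteasome gene on the other side of CSF3 at 17401 bases, had a log2 fold change of -0.33 (SE 0.24, adjusted p = 0.53, edgeR). IL3, the neighbour of CSF2, had 0 counts in all 6 libraries. PDGFRB, a receptor of the same class as CSF1R, lies 465 bases from it and was at 43.8, 58.7 and 40.9 CPM in siRBM47 libraries and at 21.1, 20.4 and 60.2 CPM in control libraries. As for CSF1R, control replicates 1 and 2 were the low libraries of PDGFRB (log2 fold change 0.49, SE 0.39, adjusted p = 0.574, edgeR), and it passed without control replicate 3 (1.20, SE 0.20, adjusted p = 0.00118, edgeR).

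The receptors of CSF2 and CSF3 were at or near the limit of detection. CSF2RB, the shared signalling chain of the CSF2 receptor, had 0 counts in all libraries, and CSF3R had 1 count, in control replicate 2. CSF2RA had 0, 3 and 0 counts in siRBM47 and 4, 3 and 3 in control libraries. It lies in the region shared by the X and Y chromosomes, where reads can fit more than 1 copy, as does IL3RA. Of the other partners of IL34, PTPRZ1 had at most 1 count, and SDC1, a cell-surface proteoglycan, was at 99.3 ± 11.3 CPM in siRBM47 and 117 ± 11.6 CPM in control libraries (SD, n = 3), with a log2 fold change of -0.24 (SE 0.18, adjusted p = 0.551, edgeR).

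Across the 8 lists of pathway genes, 57 of 78 genes were tested and 1 passed the edgeR threshold over all genes, a lower one, against backgrounds of 0.137% of genes called lower and 0.0823% called higher. The median log2 fold change of the 57 genes was -0.13 with all libraries and turned to 0.10 without control replicate 3, where those of all tested genes were -0.01 and 0.02. DESeq2 called 8 of the 57 (4.42% of all genes) and limma-voom 1 (0.233% of all genes), and edgeR without control replicate 3 called 8 higher and 10 lower, where it called 10.1% and 11.3% of all genes. The gene that passed was CEBPB, a transcription factor that acts on cytokine genes, CSF3 among them. It was at 257 ± 46.7 CPM in siRBM47 and 624 ± 52.7 CPM in control libraries (SD, n = 3). All siRBM47 libraries lay below all controls, as for 11% of all tested genes. The log2 fold change of CEBPB was -1.28 (SE 0.19, adjusted p = 0.0386, edgeR). The direction held when any 1 library was left out (-1.42 to -1.19), while the call was kept only without control replicate 3 among those fits, with an adjusted p of up to 0.319 (edgeR).

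Other genes of that list of transcription factors did not pass. FOSL1, an AP-1 subunit named after its values were seen, was at 257 ± 62.4 CPM in siRBM47 and 811 ± 415 CPM in control libraries (log2 fold change -1.66, SE 0.39, adjusted p = 0.106, edgeR). FOS, likewise named afterwards, was at 121 ± 23.5 and 41.1 ± 31.2 CPM in the same order (1.56, SE 0.45, adjusted p = 0.146, edgeR). DESeq2 called both, as did edgeR without control replicate 3, which also called NFKB1 higher. In control replicates 1, 2 and 3 FOSL1 was at 1112, 982 and 338 CPM and FOS at 26.7, 19.9 and 76.9 CPM. Of the 12 tested factors, 4 had a positive and 8 a negative log2 fold change, with a median of -0.08.

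Of the proteins that bind AU-rich elements all 9 listed genes were tested and 0 passed by edgeR. At an unadjusted p under 0.05, 2 were lower, as were 1304 of all 14578 tested genes. ZFP36 (tristetraprolin), which speeds decay of CSF2 and CSF3 mRNA, was at 14.4 ± 4.53 CPM in siRBM47 and 38.2 ± 6.82 CPM in control libraries (log2 fold change -1.41, SE 0.26, adjusted p = 0.0716, edgeR). ZC3H12A (Regnase-1), a ribonuclease of cytokine mRNAs, was at 52.5 ± 7.88 and 100 ± 14.1 CPM in the same order (-0.93, SE 0.20, adjusted p = 0.0907, edgeR). RC3H1 (Roquin) was at 28.6 ± 6.92 and 20.4 ± 1.84 CPM (0.49, SE 0.22, adjusted p = 0.319, edgeR). For these 3 genes the groups did not overlap, as for 22.6% of all tested genes. Without control replicate 3 edgeR called 3 of the 9 lower (HNRNPD, ZFP36 and ZC3H12A), in a fit that called 11.3% of all genes lower. The adjusted p was 0.00225 for ZFP36 and 0.000902 for ZC3H12A (edgeR). With all libraries DESeq2 called both ZFP36 and ZC3H12A, and limma-voom called neither.

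The JAK-STAT list, with 10 of 11 genes tested, had 0 genes past the threshold by edgeR and 2 lower at an unadjusted p under 0.05. Over all 14578 tested genes, 1304 were lower at that p. SOCS3, the feedback inhibitor of the CSF3 receptor, was at 37.8 ± 4.07 CPM in siRBM47 and 88.7 ± 22.1 CPM in control libraries (log2 fold change -1.23, SE 0.22, adjusted p = 0.069, edgeR). DESeq2 called it, and it passed without control replicate 3 (-1.01, SE 0.16, adjusted p = 0.000972, edgeR). That fit called 1 gene of this list higher, JAK1, where it called 10.1% of all genes higher. The kinase TYK2 was at 64.7 ± 14.7 and 90.5 ± 8.62 CPM (-0.48, SE 0.21, adjusted p = 0.306, edgeR), and CISH, another feedback inhibitor, was at 0.917 ± 0.102 and 1.65 ± 0.493 CPM (-0.85, SE 0.40, adjusted p = 0.341, edgeR). Among 13 tested genes that act after CSF1R, 0 passed by edgeR and 1 was lower at an unadjusted p under 0.05. That gene was GAB2, an adaptor of receptor tyrosine kinases, at 2.95 ± 0.696 CPM in siRBM47 and 6.10 ± 0.848 CPM in control libraries (-1.05, SE 0.29, adjusted p = 0.14, edgeR). DESeq2 called it, and it passed without control replicate 3 (-0.94, SE 0.29, adjusted p = 0.0348, edgeR). DUSP6, a phosphatase of ERK, had a log2 fold change of -0.55 (SE 0.25, adjusted p = 0.319, edgeR) and passed without control replicate 3 (-0.66, SE 0.21, adjusted p = 0.0419, edgeR). The ubiquitin ligase CBL, which downregulates CSF1R, had a log2 fold change of -0.34 (SE 0.18, adjusted p = 0.402, edgeR).

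Membrane-anchored CSF1 and CSF1R are shed by ADAM-type proteases, and all 5 listed genes of shedding were tested with 0 past the threshold or at an unadjusted p under 0.05 by edgeR, and 0 called by DESeq2 or limma-voom. Without control replicate 3 edgeR called 3 of the 5 higher (ADAM10, ADAM17 and TIMP3), in a fit that called 10.1% of all genes higher. TIMP3, the inhibitor of ADAM17, was at 318 ± 19.8 CPM in siRBM47 and 214 ± 108 CPM in control libraries (log2 fold change 0.57, SE 0.30, adjusted p = 0.4, edgeR), and its control counts were 2137, 2779 and 6353. Its log2 fold change without control replicate 3 was 1.06 (SE 0.15, adjusted p = 0.000321, edgeR). RHBDF1, a partner of ADAM17, had a log2 fold change of -0.28 (SE 0.25) with all libraries and -0.47 (SE 0.20) without control replicate 3. That of the protease ADAM10 was 0.24 (SE 0.32) with all libraries, -0.031 without siRBM47 replicate 1 and, without control replicate 3, 0.68 (SE 0.21, adjusted p = 0.0322, edgeR). In the class of CSF1R, 5 of 10 receptor and ligand genes were tested and 0 passed by edgeR, also at an unadjusted p under 0.05, or by DESeq2 and limma-voom. EdgeR called 2 of these higher when control replicate 3 was left out, PDGFC and PDGFRB. PDGFC, a ligand of PDGF receptors, was at 133 ± 17.6 and 88.5 ± 68.8 CPM (0.59, SE 0.44, adjusted p = 0.547, edgeR), and PDGFRA at 6.50 ± 1.11 and 10.2 ± 6.34 CPM (-0.65, SE 0.40, adjusted p = 0.465, edgeR), siRBM47 first in both. With control replicate 3 left out, the log2 fold change was 1.45 for PDGFC (SE 0.18, adjusted p = 0.000141, edgeR) and -0.0081 for PDGFRA (SE 0.25, adjusted p = 0.984, edgeR).

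In the last list, of other blood growth factors, 2 of 8 genes were tested and 0 passed by edgeR. Both were lower at an unadjusted p under 0.05, as were 1304 of all 14578 tested genes. DESeq2 called 1 (4.42% of all genes) and limma-voom 0 (0.233% of all genes). EPOR, the erythropoietin receptor, was at 25.1 ± 4.15 CPM in siRBM47 and 48.6 ± 8.79 CPM in control libraries (-0.95, SE 0.22, adjusted p = 0.0966, edgeR). IL3RA had 9, 3 and 11 counts in siRBM47 and 29, 36 and 16 in control libraries (-1.90, SE 0.57, adjusted p = 0.157, edgeR). Both passed when control replicate 3 was left out, in a fit that called 11.3% of all genes lower. The log2 fold change was then -1.10 for EPOR (SE 0.18, adjusted p = 0.0011, edgeR) and -2.22 for IL3RA (SE 0.51, adjusted p = 0.00806, edgeR).

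**Figure D4:**
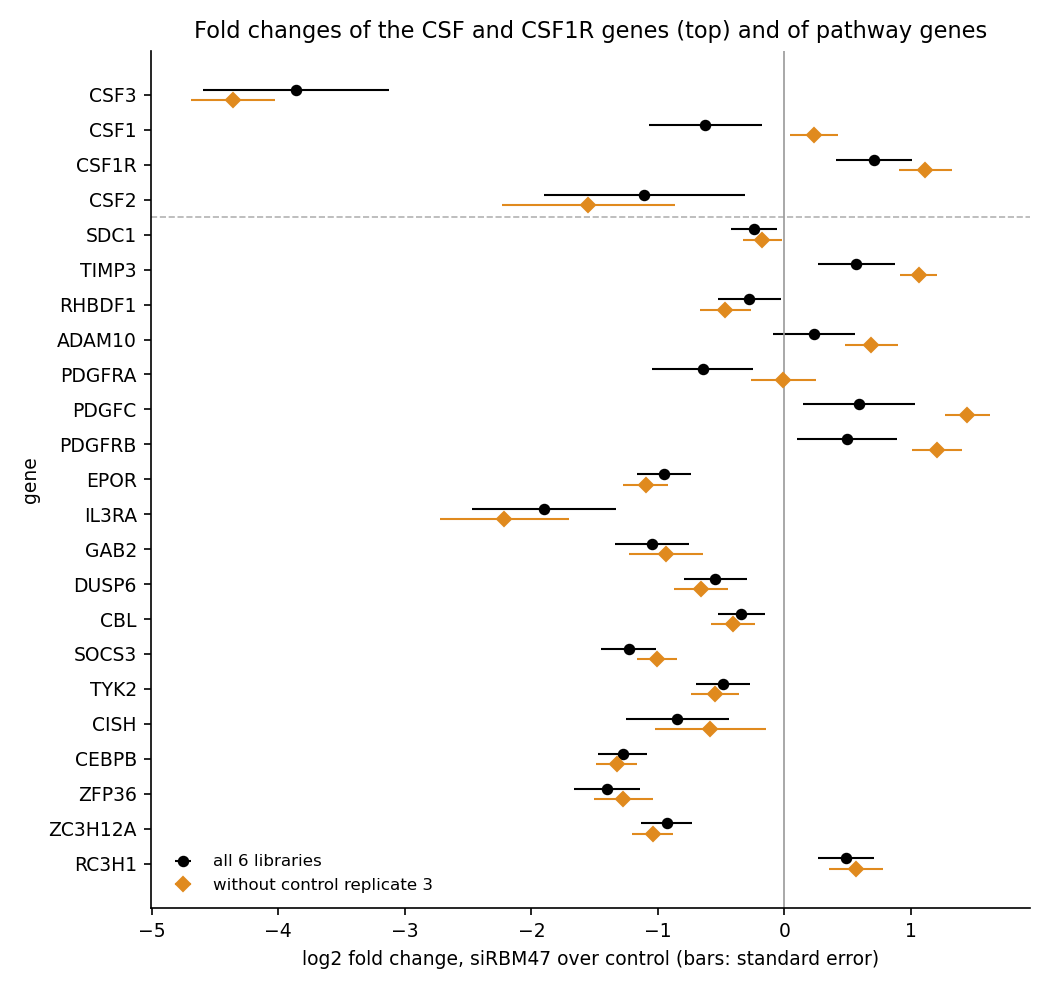
Log2 fold change (siRBM47 over control, edgeR) with its standard error for the tested CSF and CSF1R genes above the dashed line and for the pathway genes named by rule below it. Black circles use all 6 libraries and orange diamonds leave out control replicate 3. CSF1 changes sign between the fits (-0.63 and 0.24), whereas CSF3 stays below -3 in both.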

How the data were processed

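Each deposited file pairs whole-number counts per gene with FPKM, made by the authors, per the file headers. The submitters' processing notes name HISAT2 2.0.5, featureCounts 1.5.0-p3 and hg38. The kit in the labels' protocols does not mark strand. The annotation release and strand setting were not given in the sources used here. Groups and replicate numbers come from the sample titles. Gene symbols were matched by Ensembl identifier (5909 of 57905 rows had none), and MRC1 was not found among the rows. Positions are from GENCODE release 29 on GRCh38, and upstream windows from RefSeq, which matched 2 of the 5 genes.

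Genes kept by filterByExpr (minimum count of 10) were tested with edgeR 4.0.16 in R 4.3.3 (quasi-likelihood, TMM factors, no block, Benjamini-Hochberg over 14578 genes). An SE is the size of the log2 fold change divided by the root of its F statistic. CPM use TMM-scaled library sizes. FPKM served for levels between genes and for no test. Alternatives were RLE and upper quartile factors, DESeq2 1.42.0, limma-voom (limma 3.58.1), no filter or a minimum count of 50, a fit blocked on replicate number, and omission of single libraries. Named were all genes of the family, those past the threshold or otherwise the 3 with the smallest p of each other list (2 for glioma markers), and the 5 nearest patterns among tested genes averaging 3 or more log2 CPM (prior count of 2). Flanking genes were added as context. Genes and lists were chosen with earlier results of these data known. Only the main edgeR fit was run on simulated counts, where it called 27.3% of 99 genes changed 2-fold and 81.6% of 98 changed 4-fold. Of its 117 calls 10 were genes simulated as unchanged. The simulated libraries of a group shared the same mean, so a library as unlike its group as control replicate 3 was not covered.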

Additional observations from a re-analysis of the deposited data

How the results depend on the processing

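The number of genes called rested on single libraries. It was 32 of 14578 as reported, 644 by DESeq2 and 804 of the 27110 genes tested with no filter on low counts. When 1 library was left out it was 0 to 3117: 19, 12 and 3117 without control replicates 1, 2 and 3, and 0 without any 1 siRBM47 library. Of the family's tested genes 0 were called as reported, 1 by DESeq2, 1 with no filter on low counts and 1 with a replicate block (CSF3 in each case), and 0 to 2 when 1 library was left out. Over all genes these settings called 4.42% (DESeq2), 804 of 27110 (no filter) and 39 of 14578 (replicate block). Without control replicate 3, where 2 of the family were called, the share over all genes was 21.4%. Of the pathway genes 1 was called as reported, 8 by DESeq2, 8 with no filter on low counts, 0 with a replicate block, and 0 to 18 when 1 library was left out.

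The log2 fold changes ran from -4.44 to -3.51 for CSF3, -0.92 to 0.24 for CSF1, 0.51 to 1.11 for CSF1R and -1.98 to -0.57 for CSF2 over the fits that left out 1 library, and only that of CSF1 changed sign, without control replicate 3 (0.24). Under the other planned settings, each of these kept its direction, and ratios of mean FPKM gave -3.85, -0.62, 0.72 and -1.15 against -3.86, -0.63, 0.71 and -1.15 from CPM for CSF3, CSF1, CSF1R and CSF2. Other genes that changed sign were RBM47 (-0.39 to 0.76 when 1 library was left out, 0.76 without control replicate 3, 0.04 without siRBM47 replicate 3, 0.12 with a replicate block, 0.10 by limma-voom), ADAM10 (-0.031 to 0.68, lowest without siRBM47 replicate 1) and, each highest and positive only without control replicate 3, ADGRG1 (-0.93 to 0.25), CHI3L1 (-0.98 to 0.43), ANGPTL2 (-0.67 to 0.20), GBP2 (-0.60 to 0.37) and TSC22D3 (-0.69 to 0.12). The cause was not tested. The block used replicate numbers that share only a number: deviations from the group means correlated across genes at -0.04, 0.13 and 0.12 for numbers 1, 2 and 3. With the block 39 genes were called. CSF2 did not pass the filter with a minimum count of 50, and IL34 passed only with no filter. Depth limits CSF2 and IL34, whose counts do not exceed 17 in any library.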
